A study of Homo sapiens with 6 samples.

Results

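The genes described here are 8 members of the AKR1 family of aldo-keto reductases, AKR1A1, AKR1B1, AKR1B10, AKR1C1, AKR1C2, AKR1C3, AKR1C4 and AKR1D1, taken by symbol from the 20289 genes of the deposited table. They were measured in poly(A) RNA of Huh7, a human hepatocellular carcinoma cell line, in 3 libraries labelled wild type and 3 labelled as UBE2S knockout. The series asked which genes act downstream of UBE2S, a ubiquitin-conjugating enzyme of the anaphase-promoting complex. The sources used here do not say how the knockout was made or whether its libraries came from 1 clone or from separate cultures, so the spread between libraries may be technical. The family was picked with its wild-type and knockout levels already known. Its levels and fold changes are therefore a description and carry no test.

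Aldo-keto reductases use NADPH to reduce aldehydes and ketones to alcohols. The AKR1A and AKR1B enzymes act mainly on aldehydes, including sugars, retinal and products of lipid oxidation. The AKR1C enzymes are hydroxysteroid dehydrogenases that switch steroid hormones between active and inactive forms, and AKR1D1 reduces the steroid ring on the way to bile acids. In the liver they serve the breakdown of steroids, drugs and reactive carbonyls.

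The AKR1C genes are near copies of one another, which limits how well their reads can be told apart. Over the 969 coding bases of the principal GENCODE transcripts (stop codon left out), AKR1C1 and AKR1C2 were 98.0% identical, with 19 mismatches. AKR1C3 was 91.4% and AKR1C4 88.5% identical to AKR1C1. The stretch from base 103 to base 162 of the coding sequence holds 10 of the 19 AKR1C1-AKR1C2 mismatches and is shown for that reason, with capitals where any of the 4 genes differ.
AKR1C1: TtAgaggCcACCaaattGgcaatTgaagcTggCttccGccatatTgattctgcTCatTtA
AKR1C2: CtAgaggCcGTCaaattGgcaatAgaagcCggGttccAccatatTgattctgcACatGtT
AKR1C3: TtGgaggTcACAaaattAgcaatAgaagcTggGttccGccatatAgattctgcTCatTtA
AKR1C4: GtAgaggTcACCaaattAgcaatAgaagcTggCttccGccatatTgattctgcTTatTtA
Part of the coding sequence gives the same reads in both genes: 164 of the 870 coding windows of 100 bases in AKR1C1 occurred unchanged in AKR1C2 transcripts. Windows outside the coding sequence were not searched for copies. Counting all other members, 20.7% of AKR1C1 windows, 26.4% of AKR1C2 windows and 9.77% of AKR1C3 windows had an exact copy elsewhere in the family, against 0.690% for AKR1C4. The deposited values of AKR1C1 and AKR1C2 were fractional in every library and those of AKR1C3 in 5 of 6, while those of the other 5 members were whole. No window of AKR1A1, AKR1B1, AKR1B10 or AKR1D1 had such a copy.

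The AKR1B pair is easier to separate. AKR1B1 and AKR1B10 had 76.1% coding identity, with 216 mismatches over 954 aligned bases. Bases 79 to 138 show a typical stretch with 13 differences, in capitals.
AKR1B1: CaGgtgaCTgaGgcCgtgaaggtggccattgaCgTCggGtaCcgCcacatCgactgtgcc
AKR1B10: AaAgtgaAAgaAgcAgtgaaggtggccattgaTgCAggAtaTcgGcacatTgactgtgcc

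The libraries held 21840499 to 27910396 estimated counts. The targeted gene UBE2S had 224 ± 9.37 wild-type CPM against 45.7 ± 1.70 knockout CPM (SD, n = 3 each), without overlap. All 12 hepatocyte genes checked were present, and they summed to 32210 to 32886 CPM against 29516 to 30088 CPM, wild type first. They did not move one way: 8 were called lower, and FGB, FGA and APOA1 higher, with a median log2 fold change of -0.15. At the edgeR adjusted p below 0.05 used for these calls, 60.1% of all tested genes were called, 30.7% lower and 29.4% higher. Stromal markers (10) summed to 1385 to 1461 CPM against 856 to 872 CPM, nearly all of it VIM and COL1A2, a collagen gene that went from 139 to 0.338 CPM. The stromal markers did not move one way: of 7 tested, VIM, COL1A2 and LUM were called lower, and COL1A1, COL3A1, PDGFRA and PDGFRB (7.36 to 14.3 CPM) higher, with a median log2 fold change of 0.41. Immune markers (8) summed to 290 to 313 CPM against 179 to 182 CPM, nearly all LYZ, with CD3E and NKG7 at 0 counts. Endothelial markers (7) summed to 5.78 to 7.08 CPM against 2.36 to 2.86 CPM, with KDR and ERG at 0 counts. Most of that sum was PECAM1, which went from 5.72 to 2.06 CPM. No other endothelial marker passed the filter on low counts. The part of these shifts in the results on the AKR1 genes was not tested. In bulk RNA, fewer cells that express a gene and less RNA per cell cannot be told apart.

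AKR1B1, the gene for aldose reductase, changed most. This enzyme turns glucose into sorbitol in the first step of the polyol pathway. The wild-type libraries held 2496, 2295 and 2722 counts and the knockout libraries 214, 235 and 253 counts. As CPM, counts scaled to the TMM-adjusted library totals, wild type stood at 92.3, 98.4 and 97.1 and the knockout at 9.73, 10.05 and 9.75. The groups lay far apart, and replicates varied little within each. The mean fell from 95.9 ± 3.22 to 9.84 ± 0.176 CPM (SD, n = 3 each), with a log2 fold change of -3.28 (SE 0.05). Of the 13265 tested genes, 63 had a lower log2 fold change.

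AKR1B10 lies beside AKR1B1 and encodes a reductase of retinal and lipid aldehydes that is often raised in liver cancer. It was barely expressed in these cells, with 23, 23 and 23 wild-type counts against 11, 7 and 6 knockout counts. The CPM of 0.850, 0.986 and 0.820 in wild type were still all above the knockout values of 0.5002, 0.299 and 0.231. The log2 fold change was -1.37 (SE 0.32). AKR1B10 passed the filter on low counts through its wild-type libraries, since only 1 knockout library reached the minimum of 0.407 CPM. The other 7 members reached it in all 6 libraries.

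AKR1A1 encodes aldehyde reductase, the broadly expressed member with the widest range of simple aldehyde substrates. Its wild-type libraries held 94.3, 104 and 107 CPM, and its knockout libraries 55.9, 51.0 and 51.5 CPM. The groups did not overlap, and the knockout mean of 52.8 ± 2.71 CPM was 0.519 times the wild-type mean of 102 ± 6.75 CPM (SD, n = 3 each). The log2 fold change was -0.95 (SE 0.05).

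**Figure D1:**
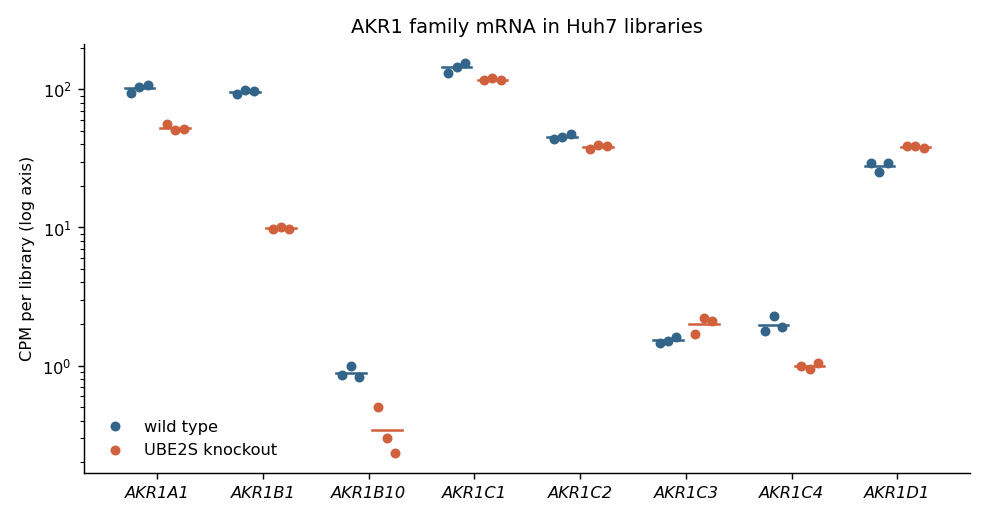
CPM of each AKR1 gene in each library on a log axis; points are libraries and short lines are group means (3 wild-type and 3 knockout libraries). AKR1B1 drops from between 92.3 and 98.4 CPM to at most 10.05 CPM, while AKR1C1 stays above 116 CPM in every library.

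Of the hydroxysteroid dehydrogenase genes, AKR1C1, AKR1C2 and AKR1C3 moved less than AKR1A1, and the AKR1C genes did not all move in the same direction. AKR1C1, whose enzyme inactivates progesterone, had the most counts of the family, with wild-type libraries at 132, 146 and 154 CPM and knockout libraries at 117, 120 and 116 CPM. AKR1C2, whose enzyme inactivates dihydrotestosterone, had 43.7, 45.5 and 47.2 CPM against 36.9, 39.5 and 38.8 CPM. Both were lower in all 3 knockout libraries, but by a small step, with log2 fold changes of -0.29 (SE 0.05) for AKR1C1 and -0.24 (SE 0.05) for AKR1C2. Wild-type libraries had 0.316 ± 0.0125 AKR1C2 counts per AKR1C1 count and knockout libraries 0.326 ± 0.00937 (SD, n = 3 each), and these ranges overlapped. Because the authors' counting could divide reads between the copies, the pair was also summed, which gave a wild-type level of 190 ± 12.7 CPM, a knockout level of 156 ± 3.17 CPM and a log2 fold change of -0.28 (SE 0.04).

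AKR1C3, whose enzyme makes testosterone from androstenedione and also forms a prostaglandin F, was low in both groups. Wild-type libraries had 1.45, 1.51 and 1.61 CPM, knockout libraries 1.70, 2.22 and 2.09 CPM. The knockout values all lay above the wild-type values, by 0.40 on the log2 scale (SE 0.18). Its 144 knockout counts stand beside 2740 from AKR1C2, and how reads were divided between the copies was not tested.

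AKR1C4 is the liver-restricted member that works with AKR1D1 in bile acid synthesis. Its counts were 48, 53 and 53 for wild type against 22, 22 and 27 for the knockout, or 1.98 ± 0.261 against 0.994 ± 0.0505 CPM (SD, n = 3 each). The groups did not overlap, and the log2 fold change was -0.98 (SE 0.20). Its partner AKR1D1, the steroid reductase that gives bile acids their bent ring junction, went the other way. Its 29.5, 25.3 and 29.4 wild-type CPM lay below all of its 38.7, 39.1 and 37.6 knockout CPM, a log2 fold change of 0.45 (SE 0.06).

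Across the family, 6 of 8 members were lower and 1 was higher in the knockout at an edgeR adjusted p below 0.05. Of all tested genes, 30.7% were called lower and 29.4% higher by the same rule, 60.1% in all. The libraries of the 2 groups did not overlap at any of the 8 members, 6 lower and 2 higher, against 33.5% of tested genes lower and 32.3% higher without overlap, 65.9% together. AKR1C3 was the member not counted, and without knockout replicate 1 it was counted as well (0.50). Since the family was chosen on this contrast, nothing is read from these counts. Summed over the family, wild-type libraries held 420 ± 21.9 CPM and knockout libraries 261 ± 3.15 CPM (SD, n = 3 each). AKR1B1 made up 54.1% of that net difference of 159 CPM, AKR1A1 30.8% and AKR1C1 16.5%, while AKR1D1 offset it by 10.4 CPM.

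Levels of different genes can be compared only per length, and here the length used matters. Per kilobase of the union of annotated exons, AKR1A1 led in wild type (32.6 ± 2.16 CPM per kb), followed by AKR1B1 (26.2 ± 0.881), AKR1C1 (16.4 ± 1.25), AKR1D1 (9.07 ± 0.773) and AKR1C2 (7.04 ± 0.270). AKR1C4 (1.03 ± 0.136), AKR1B10 (0.508 ± 0.0507) and AKR1C3 (0.336 ± 0.0179) came last; all are SD with n = 3, and each mean differed from its neighbour's by more than either SD. AKR1C1 is annotated with 8765 exonic bases but only 972 coding bases with the stop codon, so this scale lowers it more than the others. Per kilobase of the longest transcript, AKR1A1 (56.0 ± 3.71), AKR1B1 (49.7 ± 1.67) and AKR1C1 (21.5 ± 1.63) again led in this order. Per kilobase of coding sequence AKR1C1 led at 148 ± 11.2 CPM per kb, and AKR1A1 (104 ± 6.91) and AKR1B1 (101 ± 3.39) differed by less than their SD. The coding scale divides all counts of a gene, also those outside the coding bases, by lengths of 951 to 981 bases. In wild type it therefore gave the same order as CPM without a length.

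In the knockout the order changed on each of these length scales, most of all in the place of AKR1B1. Among the lowest members AKR1B10 and AKR1C3 changed places per kilobase of exon union. AKR1C4 and AKR1C3 changed places per kilobase of the longest transcript and of coding sequence. Per kilobase of the longest transcript, AKR1B1 went from rank 2 to rank 5 and AKR1D1 from rank 5 to rank 3. Per kilobase of exon union, AKR1B1 dropped from the second to the fifth place (2.69 ± 0.0481 CPM per kb), while AKR1D1 took the third (12.4 ± 0.254) after AKR1A1 (16.9 ± 0.868) and AKR1C1 (13.4 ± 0.245). AKR1B1 went from 28.1 ± 0.699% to 5.12 ± 0.113% of the summed family level, and AKR1D1 from 9.75 ± 1.04% to 23.6 ± 0.295%. Per kilobase of coding sequence the same shares were 23.3 ± 0.678% and 3.87 ± 0.0471% for AKR1B1, and 6.62 ± 0.726% and 14.6 ± 0.123% for AKR1D1. A share depends on the other members too, so a larger share of AKR1C1 (17.6% to 25.6% per exon union) stands beside a lower level.

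**Figure D2:**
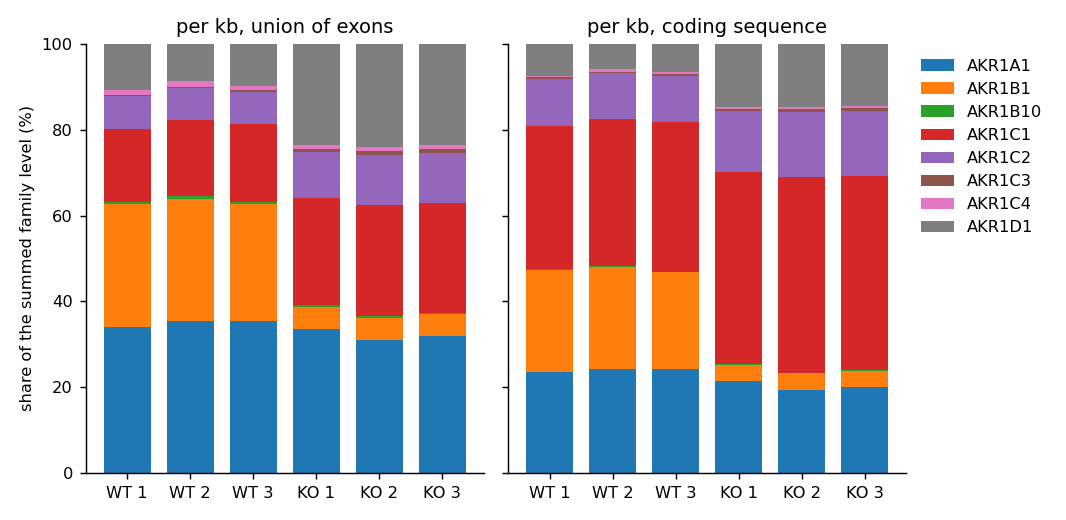
Share of the summed AKR1 level held by each gene in each library, in percent, from CPM per kilobase of exon union (left) or of coding sequence (right). On either scale the AKR1B1 band narrows in the 3 knockout libraries, from 28.1% to 5.12% on the left, and the AKR1D1 band widens.

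The members lie on 3 chromosomes (GRCh38, GENCODE release 29). AKR1A1 is on the plus strand of chromosome 1, chr1:45550543-45570049. AKR1B1 (minus strand, chr7:134442350-134459284) and AKR1B10 (plus strand, chr7:134527592-134541408) are neighbours, and AKR1D1 (plus strand, chr7:138002324-138117986) is farther along chromosome 7. The AKR1C genes form a cluster on chromosome 10, from AKR1C1 (chr10:4963253-4983283) and AKR1C2 (minus strand, chr10:4987400-5018031) to AKR1C3 (chr10:5035354-5107686) and AKR1C4 (chr10:5195462-5218949). Annotated RNAs overlap AKR1C2 and AKR1C3 on the opposite strand, and the sources used here do not say if strand was used, so reads of such partners cannot be told apart. On the same strand, 1 annotated pseudogene overlaps AKR1C4, and 3 pseudogenes and the RNA gene RN7SKP223 overlap AKR1D1; none of them is a row of the table.

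The genes around AKR1B1 showed no common fall. The 10 tested genes on each side, with all AKR1 members left out here and below, had a median log2 fold change of 0.04 and a lowest value of -1.98, so AKR1B1 lay below all 20. By the edgeR call 5 of the 20 were lower and 8 higher. AKR1B10, described above, is the next tested gene on one side of AKR1B1, and the nearest genes flanking the pair were SLC35B4, a nucleotide sugar transporter gene, at 0.05 (SE 0.05, edgeR adjusted p = 0.38) and BPGM, a red cell enzyme of glycolysis, at -0.07 (SE 0.07, edgeR adjusted p = 0.37). AKR1A1, in contrast, sat among genes that were lower: its 20 neighbours had a median of -0.29, with 14 lower and 1 higher by the edgeR call. Of all tested genes, 30.7% were called lower and 29.4% higher. PRDX1, a peroxiredoxin gene 27.5 kb away, fell from 757 to 513 CPM (log2 change -0.56, edgeR adjusted p = 1.2e-07), and the histone chaperone gene NASP fell less (log2 change -0.29, edgeR adjusted p = 5.1e-05). With that median taken off, AKR1A1 stood at -0.66.

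The AKR1C cluster had few tested genes close by. The nearest were KLF6, a transcription factor gene, which rose by 0.20 (SE 0.04, edgeR adjusted p = 4.8e-04), and NET1, which fell by 0.78 (SE 0.04, edgeR adjusted p = 3.7e-09). The median of 19 neighbours was -0.19, with 10 lower and 6 higher by the edgeR call, and 8 of them lay below AKR1C1. With 25 genes a side, as far as the chromosome end allowed, the median was -0.32. AKR1C1 and AKR1C2 were thus within the range of their neighbours, 0.10 and 0.05 below the 19-gene median. Around AKR1D1 the median was 0.20, with 2 lower and 12 higher by the edgeR call, and 17 of 20 neighbours had a lower fold change than AKR1D1. There, TRIM24, a coregulator of nuclear receptors, rose by 0.31 (SE 0.03, edgeR adjusted p = 6.4e-06). The transcription factor gene CREB3L2, 0.257 kb from the edge of the annotated AKR1D1 span, was at 0.07 (SE 0.03, edgeR adjusted p = 0.070). The RefSeq start of AKR1D1 lies farther inside that span, at chr7:138076459, so 0.257 kb is not the distance to that start. CREB3L2 passed the threshold without wild-type replicate 1 (0.093) and with library totals in place of TMM scaling (0.086).

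**Figure D3:**
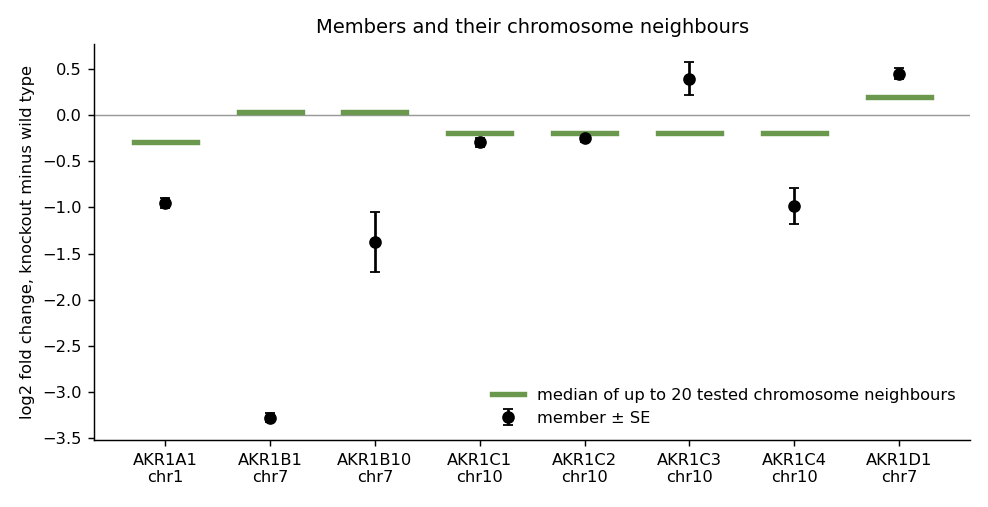
Log2 fold change (knockout minus wild type) of each member with its SE as points, and the median of its 10 tested neighbours on each side (fewer at the end of chromosome 10, members left out) as bars. AKR1B1 sits at -3.28 over a neighbour median of 0.04, and AKR1C1 and AKR1C2 sit close to theirs.

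RefSeq (GRCh38.p14) gave promoter sequences for 7 of the 8 members; AKR1B10 is the other. Those of the 3 members with the most lost CPM and of AKR1C2 are shown as the 250 bases before the start, 5′ to 3′ in the direction of the gene, with motif matches in capitals. The motifs searched on both strands were the TATA box (TATAAA), the CCAAT box (CCAAT), the GC box (GGGCGG), the antioxidant response core (TGACNNNGC), the tonicity element core (TGGAAA) and the HNF1 site. No matches overlapped.
AKR1B1, chr7:134459101-134459350, minus strand: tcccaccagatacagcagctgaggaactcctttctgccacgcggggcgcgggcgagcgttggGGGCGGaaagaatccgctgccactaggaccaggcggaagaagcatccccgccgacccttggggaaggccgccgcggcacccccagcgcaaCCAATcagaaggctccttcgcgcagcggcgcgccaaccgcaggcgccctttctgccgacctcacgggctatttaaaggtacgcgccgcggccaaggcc
AKR1A1, chr1:45550576-45550825, plus strand: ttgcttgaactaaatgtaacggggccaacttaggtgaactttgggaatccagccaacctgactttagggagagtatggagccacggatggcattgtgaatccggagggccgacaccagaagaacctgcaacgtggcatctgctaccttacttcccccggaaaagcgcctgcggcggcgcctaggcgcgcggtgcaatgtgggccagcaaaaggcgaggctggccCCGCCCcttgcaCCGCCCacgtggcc
AKR1C1, chr10:4963165-4963414, plus strand: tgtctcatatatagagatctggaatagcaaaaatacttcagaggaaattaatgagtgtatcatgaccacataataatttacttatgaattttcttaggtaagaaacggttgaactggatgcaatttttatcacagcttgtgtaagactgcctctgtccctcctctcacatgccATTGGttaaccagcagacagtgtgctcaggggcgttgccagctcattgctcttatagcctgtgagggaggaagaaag
AKR1C2, chr10:5003858-5004107, minus strand: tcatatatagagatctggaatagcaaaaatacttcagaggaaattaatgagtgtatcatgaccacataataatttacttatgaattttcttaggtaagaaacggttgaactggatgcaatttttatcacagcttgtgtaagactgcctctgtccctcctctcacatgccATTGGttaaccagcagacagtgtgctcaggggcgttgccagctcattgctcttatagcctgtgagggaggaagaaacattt
The AKR1B1 window held a GC box and a CCAAT box, and the AKR1A1 window held GC boxes and no CCAAT box. AKR1C1 and AKR1C2 shared 245 of 246 aligned bases here, including 1 inverted CCAAT box. Among 35116 RefSeq promoters, 42.6% held the GC box and 32.0% the CCAAT box in a window of this length. TATAAA, in 10.7% of them, was found in the window of AKR1C4 and, inverted as TTTATA, in a window of AKR1C3. TGGAAA, in 18.0%, occurred in the AKR1D1 window alone among the members. The letters TGACNNNGC (10.9%) and those of the HNF1 site (0.0057%) were in no member's window. AKR1B1 and AKR1C3 have a second RefSeq start, and those windows were searched as well. Sequence outside these windows was not searched, so a motif missing here may lie farther from the start.

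Genes that work beside the family were read from lists, given by the number of tested genes that passed the edgeR threshold and by their median log2 fold change, beside 60.1% called and a median of -0.00057 over all tested genes. In the polyol pathway and fructose metabolism, downstream of AKR1B1, 5 of 7 tested genes were called, 2 higher and 3 lower, with a median of -0.10. SORD, which turns the sorbitol made by aldose reductase into fructose, fell by only 0.15 (SE 0.04, edgeR adjusted p = 0.0040), from 119 to 107 CPM. The fructokinase gene KHK fell by 1.08 (SE 0.07, edgeR adjusted p = 4.8e-08), from 16.8 to 7.95 CPM. SLC2A2, the liver glucose and fructose transporter gene, rose from 12.7 to 30.7 CPM (a log2 change of 1.28, edgeR adjusted p = 2.5e-09), and TKFC, the triokinase gene, rose by 0.46 (SE 0.04).

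Sorbitol is also an osmolyte, and AKR1B1 is known as a target of the tonicity factor NFAT5. All 7 osmotic response genes were called, 5 lower and 2 higher (median -0.17). NFAT5 itself, named after its values were seen, fell by 0.17 (SE 0.04, edgeR adjusted p = 0.0034), from 194 to 173 CPM. Of the transporter genes of other osmolytes, SLC5A3, for inositol, fell by 0.55 (SE 0.05), and SLC6A6, for taurine, by 0.30 (SE 0.03). SLC6A12, for betaine, fell more, by 1.29 (SE 0.16, edgeR adjusted p = 1.9e-05), at a lower level of 3.07 to 1.25 CPM. It had a mean below 5 CPM and was named after its values were seen. SGK1, a kinase gene, rose by 0.45 (SE 0.03), and the amino acid transporter gene SLC38A2 rose by 0.10 (SE 0.03). A link between these changes and that of AKR1B1 was not tested.

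AKR1B10 and the AKR1C genes are known targets of the oxidative stress factor NRF2. The NRF2 list went both ways, with 10 of 23 genes higher and 9 lower (median 0.05). The cystine transporter gene SLC7A11 rose by 1.07 (SE 0.04) and the heme oxygenase gene HMOX1 by 0.54 (SE 0.04), while GPX2, a glutathione peroxidase gene, fell by 2.14 (SE 0.16) and PIR by 0.89 (SE 0.05). The factor's own gene NFE2L2 fell by 0.47 (SE 0.04, edgeR adjusted p = 4.5e-07), and KEAP1, its inhibitor, rose by 0.41 (SE 0.03, edgeR adjusted p = 3.2e-07). NFE2L2 and KEAP1 were named after their values were seen. A link between the changes in this list and those of the AKR1 genes was not tested.

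Other enzymes of carbonyl and aldehyde detoxification were split, with 7 of 18 tested genes higher and 6 lower (median 0.05). ADH6, an alcohol dehydrogenase gene, fell by 1.17 (SE 0.08) and DHRS4, a carbonyl reductase gene, by 0.67 (SE 0.06). CBR4 rose by 0.59 (SE 0.04) and ALDH3B1 by 0.46 (SE 0.09). The remaining aldo-keto reductase genes summed to 37.0 to 41.1 CPM in wild-type libraries, most of it AKR7A2, an aldehyde reductase gene of another branch, which fell by 0.22 (SE 0.06, edgeR adjusted p = 0.0066) from 35.3 to 30.1 CPM. Of that list 5 of 9 measured genes were tested, 2 called higher and 2 lower. AKR1E2 had 0 counts in all 6 libraries, which allows up to 0.020 CPM (3 counts in all), and AKR1B15 and AKR1C8P had at most 1 count in any library.

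Hydroxysteroid dehydrogenases and steroid reductases outside the family had 9 of 18 tested genes lower and 2 higher (median -0.26). HSD17B2, which oxidises estradiol and testosterone, fell from 8.57 to 1.92 CPM (a log2 change of -2.16, edgeR adjusted p = 6.8e-09). HSD3B7, which acts before AKR1D1 in bile acid synthesis, fell from 17.3 to 8.15 CPM (-1.08, SE 0.08). The 2 that rose, HSD3B1 (2.43, SE 0.19) and HSD17B14 (1.58, SE 0.14), had a mean below 5 CPM and were named after their values were seen. Among 8 tested bile acid synthesis partners, 3 were lower and 2 higher (median -0.11). CYP7A1, which starts the classical pathway, had 0 counts in every library. HSD17B4, of peroxisomal side-chain oxidation, fell by 0.14 (SE 0.03). AMACR, of the same step, was at 0.10 (SE 0.04, edgeR adjusted p = 0.042), a call lost with DESeq2 (adjusted p = 0.14), with no filter on low counts (edgeR adjusted p = 0.056) and without any 1 library except wild-type replicate 3 (0.08 to 0.12).

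Regulators of AKR1C4 and AKR1D1 in liver had 8 of 12 genes lower and 2 higher (median -0.27). CEBPD fell by 0.54 (SE 0.06) and CEBPA by 0.48 (SE 0.04), and FOXA2 rose by 0.20 (SE 0.04). NR0B2, the gene of a small repressor, was at 0.33 (SE 0.13, edgeR adjusted p = 0.038); its groups overlapped, and the call was lost with DESeq2 (adjusted p = 0.095) and without any 1 library except wild-type replicate 3 and knockout replicate 2 (0.20 to 0.36). In retinoid metabolism, where AKR1B10 acts on retinal, 3 of 11 tested genes were higher and 3 lower (median -0.05). The retinol dehydrogenase gene RDH10 fell by 0.82 (SE 0.07) and RETSAT by 0.51 (SE 0.05), while the retinoic acid hydroxylase gene CYP26B1 rose by 0.34 (SE 0.05). In prostaglandin metabolism, which AKR1C3 and AKR1B1 share, 4 of 10 tested genes were higher and 2 lower (median 0.14). HPGD rose by 0.44 (SE 0.05) and PTGR1 by 0.40 (SE 0.04). PTGES2 fell by 0.12 (SE 0.03), a call lost without knockout replicate 1 (-0.10).

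**Figure D4:**
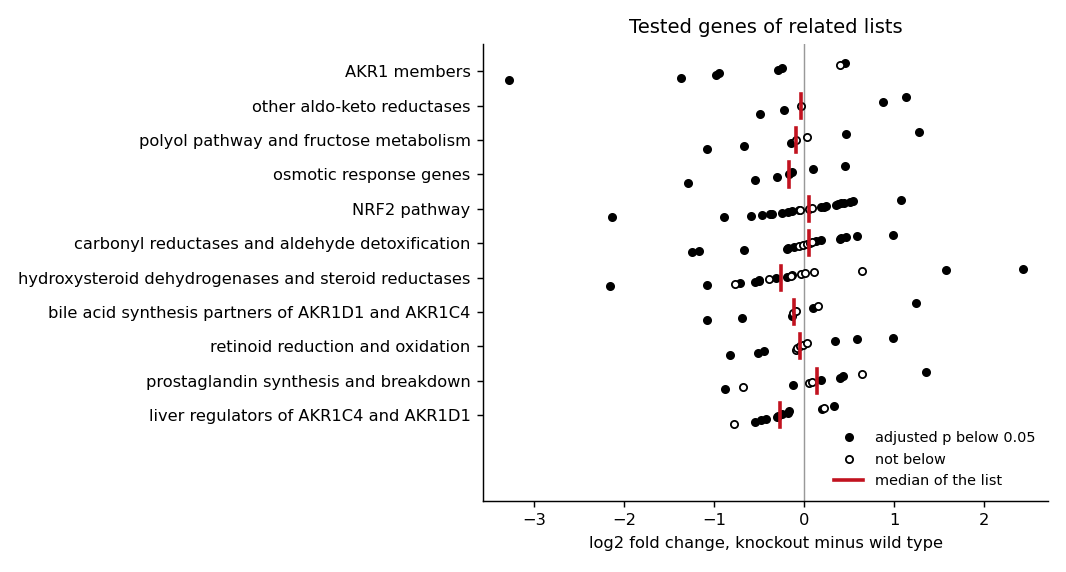
Log2 fold change (knockout minus wild type) of every tested gene in each related list, with filled points for an edgeR adjusted p below 0.05, open points for the rest and a bar at the median of each list other than the members. The list medians lie between -0.27 and 0.14, and AKR1B1 is the farthest point to the left.

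The genes with the pattern most like AKR1B1 over the 6 libraries, among 10605 with a mean of at least 5 CPM, were HOXD1, a homeobox gene (root mean square difference of centred log2 CPM 0.0973), IRAK3, an inhibitor of Toll-like receptor signalling (0.141), and the myosin heavy chain gene MYH4 (0.184). HOXD1 went from 14.2 to 1.44 CPM. For AKR1D1 they were RGL1 (0.0229), HPF1 (0.0270) and C10orf88 (0.0319), of which RGL1 went from 50.2 to 69.6 CPM. With 2 groups of 3 libraries such likeness mainly means a group difference of the same size.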

How the data were processed

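The values are estimated counts, as deposited, in 1 gene table that covers the 6 libraries; they are not normalized and some are fractional. Depth is the total per library, 21840499 to 27910396. Tools named, without their roles, are StringTie 1.3.1, DESeq2, HISAT2 and Bowtie2 2.2.8, per the submitters' processing notes. The sources used here do not name the build or annotation of the counting; GENCODE release 29 (GRCh38), which held 99.4% of the identifiers, gave positions, lengths and coding sequences.

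Estimated counts were rounded and fitted with edgeR 4.0.16 in R 4.3.3: filterByExpr (minimum count 10), TMM scaling, quasi-likelihood F test of knockout against wild type over 13265 genes, Benjamini-Hochberg threshold 0.05. The SE is the log2 fold change divided by the square root of F. CPM use the TMM-scaled totals and the unrounded counts. The test was tried on simulated data for knockout against wild type with 13265 genes. It recovered 68% of 50 genes changed by 0.3, 88% at 0.5, 94% at 1 and 96% at 2 on the log2 scale, and called 13 unchanged genes. Only these 50 genes per size were changed, whereas 60.1% of tested genes were called in the data. The simulation therefore does not give the recovery or the number of false calls in the data.

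The members and lists were chosen with earlier results of these data known. Named list genes are up to 2 called genes per direction with the largest change and a mean of at least 5 CPM, or, with no call, the 2 of highest mean CPM; the nearest tested genes beside the members and the 3 closest patterns were also named. One gene that this rule names is not reported here. Alternatives were other scalings and filters, DESeq2 1.42.0, limma-voom (limma 3.58.1), a replicate block, each library left out, unrounded counts, summed copies, other lengths and other neighbour numbers. A threshold of 0.01 and the coding length were chosen after seeing the data.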

Additional observations from a re-analysis of the deposited data

How the results depend on the processing

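The number of AKR1 genes called was 7 of 8 with other scalings, with no filter, with DESeq2, limma-voom, unrounded counts and a threshold of 0.01. It was 6 where genes needed 1 CPM in 3 libraries, because AKR1B10 was then not tested. Leaving out each library in turn gave 7 to 8, with AKR1C3 passing without knockout replicate 1. Members kept their direction in every one of these fits: AKR1B1 ranged from -3.31 to -3.27, AKR1A1 from -1.005 to -0.91, AKR1B10 from -1.72 to -1.14, AKR1C4 from -1.05 to -0.88 and AKR1D1 from 0.38 to 0.48. Summing AKR1C1, AKR1C2 and AKR1C3 into 1 feature turned the value that stands for AKR1C3 from 0.40 to -0.27 (SE 0.04), because AKR1C1 and AKR1C2 hold nearly all of the sum. AKR1A1 made up 34.97% of the family level in wild type and 32.2% in the knockout per exon union. Per longest transcript these were 36.3% and 36.1%, and per coding sequence 24.0% and 20.2%. Calls over all genes numbered 6472 to 8457 in all alternatives, against 7975 of 13265 tested genes in the main fit. They were 6725 of 15447 with DESeq2, 8109 of 17087 with no filter and 6472 of 13265 at the threshold of 0.01. As the family was chosen on this contrast, nothing is read from the member calls beside them. Calls in the related lists numbered 75 to 86, against 83. Equal replicate numbers did not pair the libraries (deviations correlated at 0.024, -0.037 and 0.017), and with the replicate block 7913 genes, 7 members and 84 related genes were called. The block also ended the call of AMACR (edgeR adjusted p = 0.053). For AKR1B10, AKR1C3 and AKR1C4 the low counts limit the precision.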
